A study of Mus musculus with 24 samples.

Results

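Dexa, taken here as the synthetic glucocorticoid dexamethasone, was given to mouse embryonic fibroblasts in which the ubiquitin ligase Cop1 had been knocked down and the cryptochrome ligand KL001 was present. The response was read as all genes of 3 libraries with siCop1, KL001 and Dexa against 3 libraries with siCop1 and KL001 without Dexa, 6 of the 24 libraries of the study. All libraries came from wild type fibroblasts labelled MEFs. The other 18 held the same plus and minus Dexa pairs, 3 libraries each, in siCop1 with DMSO, in control siRNA (siCTRL) with KL001, and in siCTRL with DMSO. Both groups compared here therefore carried siCop1 and KL001, and Dexa was the one labelled difference. Doses, times and the sex or passage of the cells were not given in the sources used here. The labels number the replicates 1 to 3 and do not say whether they were separate cultures, so p-values measure the spread between these libraries, which can be technical.

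As background, glucocorticoids bind the glucocorticoid receptor (gene Nr3c1), a transcription factor that is held by chaperones in the cytoplasm until ligand sends it to the nucleus. There it activates genes with its own DNA element and represses others, among them many targets of NF-kB and AP-1. Cop1 (listed in the files under the older symbol Rfwd2) is the substrate receptor of a cullin-4 ubiquitin ligase and is known for the turnover of Jun and of the ETS factors Etv1, Etv4 and Etv5, with Tribbles proteins as adaptors. Cryptochromes are repressors of the circadian clock, are stabilised by KL001 and are known to bind and repress the glucocorticoid receptor.

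The knockdown was present on both sides of the comparison. Rfwd2 was at 4.33, 5.17 and 5.79 CPM (counts scaled to a common library size) in the 3 libraries without Dexa and at 4.49, 5.11 and 4.98 CPM with it, a log2 change of -0.070 (adjusted p = 0.709). Its group means in the 4 siCTRL groups lay between 25.6 and 28.4 CPM. The 6 libraries held 21409988 to 26033351 counts, and the first principal component, with 55.8% of their variance, separated the Dexa libraries from the others. The fibroblast genes checked (Col1a1, Vim, Thy1 and others, 11 of 11 detected) summed to 42400 to 43840 CPM without Dexa and to 41250 to 43290 with it. Pdgfra was higher and Pdgfrb and Dcn lower. Of the 11, Dcn, at 1.55 to 2.91 CPM, and Lum, at 0.2325 to 0.541 CPM, were low in all 6 libraries. In bulk libraries, fewer cells of a type and less RNA per cell cannot be told apart. Of markers of other cells, the 12 heart muscle genes summed to at most 6.37 CPM in a library, with Myl7 at 0 in all 6. The 8 skeletal muscle genes summed to at most 3.17 CPM, with Myod1, Myog, Myf5 and Ckm at 0. The 10 macrophage genes reached at most 19.2 CPM with Fcgr1 at 0, and of these Csf1r and Cd300lb were lower with Dexa. The 6 endothelial genes summed to 1.44 to 2.16 CPM without Dexa and to 0.930 to 1.08 with it, and Kdr and Tek were lower. The 8 airway genes summed to 102 to 140 CPM in all 6 libraries, of which Cbr2 alone made up 98.7 to 127. None of the 5 airway genes with enough counts to test was called. The 8 squamous epithelium genes summed to 13.4 to 18.0 CPM without Dexa and to 42.2, 21.3 and 17.9 with it, and Trp63 was the one called, higher with Dexa. Dexa replicate 1 had the highest squamous, airway and macrophage sums of the 6 libraries. In it Krt13 was at 8.11 and Krt4 at 7.16 CPM, against at most 1.97 and 1.90 in any other of the 6. Whether these markers had a part in the results was not tested.

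Dexa changed genes in both directions in about equal number. Of 14772 genes with enough counts to test, 3620 passed an adjusted p below 0.05 (24.5% of those tested) by edgeR's quasi-likelihood test. Every adjusted p below is from that test, by the Benjamini-Hochberg method over all genes tested, unless another tool is named. Of these, 1791 were higher with Dexa (12.1%) and 1829 were lower (12.4%). Changes of at least 2-fold were mostly increases, with 301 genes higher and 87 lower (388 in all, 2.63% of those tested). The median log2 change over all genes tested was -0.00028.

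**Figure D1:**
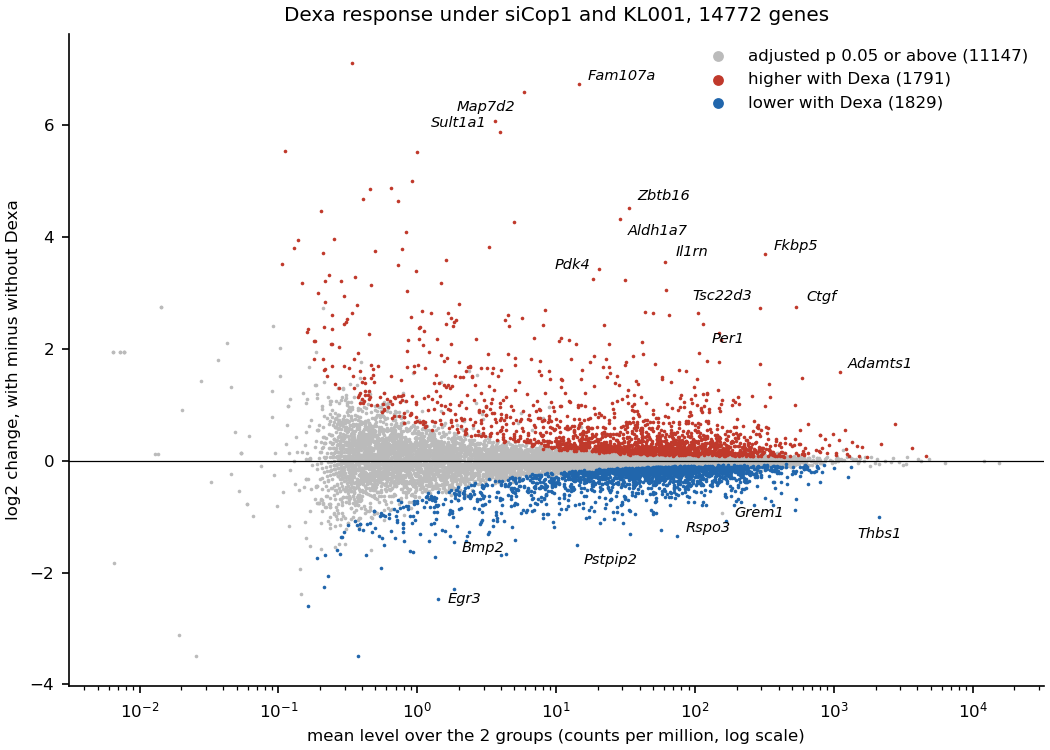
Log2 change with Dexa (vertical axis) against mean level in CPM (horizontal axis, log scale), 1 point per gene tested, for siCop1 KL001 libraries with and without Dexa (3 each). Red points (1791) were higher and blue points (1829) lower at an adjusted p below 0.05, and genes without a count in these libraries are not drawn. The points beyond 2-fold are mostly red, and Fam107a, at 6.72, is the highest of the genes with a name in the plot.

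Among the 10 largest increases in genes with a mean of at least 5 CPM, several were in genes near silence without the hormone. Fam107a, an actin-associated protein and known glucocorticoid target (chromosome 14, 8296270 to 8317607, GRCm38.p6), was at 0.39, 0.232 and 0.187 CPM without Dexa and at 29.3, 28.9 and 28.5 CPM with it. Map7d2, a microtubule-binding protein gene on the X chromosome, was at 0.156, 0.193 and 0 CPM without and 11.9, 11.5 and 11.2 CPM with Dexa. The 3 Dexa libraries stood far above the 3 others for both genes, and the rule that chose both required groups without overlap. The log2 changes were 6.72 ± 0.15 (SE, adjusted p = 2.39e-24) and 6.59 ± 0.21 (adjusted p = 4.94e-21), both of which depend on the few counts without Dexa. Sult1a1, a sulfotransferase with a lower mean, was near silence in the same way, with 0.039, 0.193 and 0.0747 CPM without and 7.81, 7.01 and 6.7 CPM with Dexa (log2 change 6.07 ± 0.25, adjusted p = 3.76e-18).

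Some of these genes carry the palindromic letters of a glucocorticoid receptor element close to an annotated start, of which a gene can have several. The letters searched were GNACANNNTGTNC (N is any base; the pattern reads the same on both strands) in the RefSeq windows from 250 bases before to 50 after each start, build GRCm38.p6. Of all 32851 windows, 156 (0.475%) held them. Of the tested genes, 10952 of 14772 were matched to a window and 49 of those (0.447%) had a match, against 12 of the 209 matched genes higher by at least 2-fold (5.74%), 15 of 1386 higher by any amount (1.08%), 5 of 1387 lower (0.36%) and 29 of 8179 not called (0.355%). In the list of 38 glucocorticoid-induced genes, 31 had a window and 5 held the letters. Jund, a gene that fell, held them too. Those 5 and Map7d2 are printed here with 25 bases on either side, because they show the element beside genes that rose; capitals mark the match, and each runs 5′ to 3′ on the gene's strand.
Fam107a, minus strand, chr14:8309860-8309922, match from position -118 to the start: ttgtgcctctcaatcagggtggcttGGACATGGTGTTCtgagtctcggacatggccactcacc
Map7d2, plus strand, chrX:159459110-159459172, match from position 11: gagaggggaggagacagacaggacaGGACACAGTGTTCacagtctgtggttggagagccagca
Trim63, plus strand, chr4:134314887-134314949, match from position -208: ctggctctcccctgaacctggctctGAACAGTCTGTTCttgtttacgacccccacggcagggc
Map3k6, plus strand, chr4:133240612-133240674, match from position -181: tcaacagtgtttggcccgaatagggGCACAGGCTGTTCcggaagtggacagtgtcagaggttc
Mt1, plus strand, chr8:94178970-94179032, match from position -94: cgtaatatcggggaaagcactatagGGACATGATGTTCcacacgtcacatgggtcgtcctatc
Sgk1, plus strand, chr10:21993677-21993739, match from position -188: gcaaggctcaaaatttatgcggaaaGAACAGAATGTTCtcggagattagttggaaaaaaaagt
Positions are counted from the annotated start of that window, negative before it. For Fam107a, Map7d2 and Sgk1 that start lies inside the gene and is not its outermost one. Map7d2 spans 159414492 to 159498958 and Sgk1 21882184 to 21999903. A match is a run of letters and not a measured binding site.

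Genes with a higher level before treatment rose as clearly. Fkbp5, a co-chaperone that lowers the receptor's affinity for hormone (chromosome 17, 28398753 to 28486149), was at 47.8, 47.3 and 44.3 CPM without Dexa and 596, 603 and 594 CPM with it. The groups were more than 500 CPM apart and the libraries within each differed by less than 10, for a log2 change of 3.69 ± 0.035 (adjusted p = 6.98e-34). Tsc22d3, which encodes the leucine zipper protein GILZ (X chromosome, 140539528 to 140600522), went from 77.8 ± 1.81 CPM (SD, n = 3) to 515 ± 6.71 (log2 change 2.73, adjusted p = 7.77e-32). Zbtb16, a zinc finger repressor, was at 3.2, 2.94 and 2.35 CPM without and 63.9, 61.3 and 67.7 CPM with Dexa (log2 change 4.51 ± 0.10). Sgk1, a kinase that shares targets with Akt, was at 135, 136 and 138 CPM without and 439.6, 459.6 and 459 CPM with Dexa (log2 change 1.73 ± 0.031), its groups again without overlap.

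The rule chose 6 more genes among the 10 largest increases. Aldh1a7, an aldehyde dehydrogenase (chromosome 19, 20692953 to 20727556), went from 2.73 ± 0.241 to 54.7 ± 0.189 CPM (log2 change 4.32), with reads that its close relative Aldh1a1 can share. Il1rn, the secreted antagonist of the interleukin-1 receptor (chromosome 2, 24336860 to 24351491), was at 9.55, 10.4 and 9.0 CPM without and 109, 116 and 113 CPM with Dexa (log2 change 3.55 ± 0.052). Pdk4, the kinase that switches off pyruvate dehydrogenase, rose from 3.48 ± 0.432 to 37.3 ± 1.73 CPM (log2 change 3.42). The peptidases Ace, angiotensin-converting enzyme, and Cpm, carboxypeptidase M, rose by log2 changes of 3.25 and 3.23. Mt2, a metallothionein, rose from 13.4 ± 1.25 to 111 ± 5.89 CPM (log2 change 3.04); Mt1 and Mt2 are near copies, and how shared reads were counted was not given in the sources used here. In each of these 6 genes the lowest Dexa library was above the highest library without Dexa, which the rule that chose them required.

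**Figure D2:**
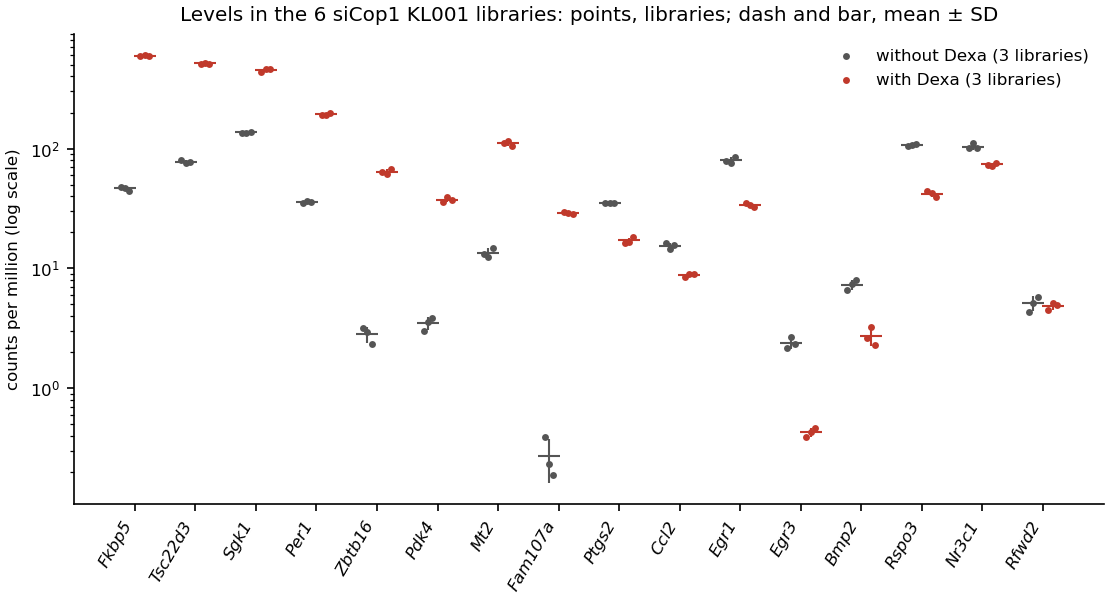
Levels in CPM (vertical axis, log scale) of 16 genes in the 3 siCop1 KL001 libraries without Dexa (grey) and the 3 with it (red); points are libraries and the dash with its bar is the mean ± SD. Fkbp5, Tsc22d3, Sgk1, Per1, Zbtb16, Pdk4, Mt2 and Fam107a are higher with Dexa, Ptgs2 to Nr3c1 are lower, and the Rfwd2 groups overlap.

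Among genes known as glucocorticoid-induced, most rose. Here and in the lists that follow, the up to 4 members with the largest called change and at least 1 CPM were chosen by a rule, and other members are named after their values were seen. The lists and their members were chosen with earlier results of these data known. Their counts beside the share of all genes are therefore a description and not a test. Of the 37 members tested (Gpx3 had too few counts), 30 were higher, 3 lower and 4 not called, with a median log2 change of 1.06 against -0.00028 over all genes, where 12.1% were higher. Beside those above, Hif3a rose by 4.88, the muscle ubiquitin ligase Trim63 by 2.44 and Map3k6 by 1.81. Glul, glutamine synthetase, rose by 1.76, Klf9 by 1.06 and the NF-kB inhibitor Nfkbia by 0.76. Dusp1, the phosphatase that switches off p38 and JNK, was at 46.2, 41.01 and 45.8 CPM without and 76.5, 79.03 and 75.97 CPM with Dexa (log2 change 0.80, adjusted p = 4.72e-14). The 3 lower members were Thbd, thrombomodulin (-0.95), Angptl4, an inhibitor of lipoprotein lipase (-0.59), and Fbxo32, a ubiquitin ligase of muscle atrophy (-0.31). Lpin1, Snai2, Bcl6 and Cdkn1c were not called, with log2 changes from -0.17 to 0.11.

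The receptor gene itself fell, and 1 of its chaperones was called. Nr3c1 was at 101, 111 and 100.3 CPM without and 73.6, 72.2 and 75.3 CPM with Dexa, with all 3 Dexa libraries below the others (log2 change -0.50 ± 0.077, adjusted p = 3.54e-05). Of 18 receptor, chaperone and cofactor genes tested, 1 was higher, 1 lower and 16 not called, where 24.5% of all genes were called, and the median was -0.014. The higher one was Hspa8, the constitutive Hsc70 chaperone (0.26, adjusted p = 0.0343). Its call was lost without replicate 2 or 3 of the libraries without Dexa (adjusted p 0.181 and 0.0759) and without Dexa replicate 1 or 3 (0.163 and 0.0522). The chaperones Hsp90ab1 (-0.030), Hsp90aa1 (0.038), Fkbp4 (-0.016) and Ptges3 (-0.041) did not pass the test. Hsd11b1, which regenerates active glucocorticoid, and the mineralocorticoid receptor Nr3c2 had too few counts to test.

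The 10 largest decreases among genes with a mean of at least 5 CPM included growth factors and immediate early genes. Pstpip2, an adaptor protein of the actin cytoskeleton, was at 20.9, 20.9 and 20.95 CPM without Dexa and 7.98, 7.08 and 6.93 CPM with it (log2 change -1.51 ± 0.072, adjusted p = 1.81e-16). Bmp2, a bone morphogenetic protein (chromosome 2, 133552159 to 133562896), was at 6.55, 7.41 and 7.99 CPM without and 2.63, 3.25 and 2.28 CPM with Dexa (log2 change -1.42 ± 0.12, adjusted p = 1.35e-10). Rspo3, which strengthens Wnt signalling, was at 105, 107 and 109.8 CPM without and 44.4, 42.3 and 39.1 CPM with Dexa (log2 change -1.35 ± 0.049). In these 3 genes every Dexa library was below every other library, as the rule that chose them required. Grem1, a BMP antagonist, fell from 229 ± 2.87 to 108 ± 2.43 CPM (log2 change -1.09), the RNA-binding protein Mex3b from 48.7 ± 1.94 to 19.6 ± 0.518 CPM (-1.32) and Stc1, stanniocalcin, from 13.4 ± 1.46 to 5.91 ± 0.688 CPM (-1.18). Evi2a (-1.11) and Arc, an activity-induced gene (-1.10), completed the 10 with Egr1 and Phlda1, which are described with their list.

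Immediate early genes and the feedback genes of the MAP kinase pathway fell together. Of 32 tested, 24 were lower (12.4% of all genes were), 1 higher and 7 not called, and the median log2 change was -0.294. Egr1, a zinc finger factor induced within minutes by growth factors, was at 78.7, 76.5 and 85.5 CPM without and 34.99, 34.1 and 32.7 CPM with Dexa (log2 change -1.24 ± 0.053, adjusted p = 1.5e-17). Egr3 was at 2.15, 2.66 and 2.32 CPM without and 0.388, 0.426 and 0.465 CPM with Dexa (log2 change -2.47 ± 0.25, adjusted p = 4.64e-09), and Egr2 fell by 1.62. For both Egr1 and Egr3 the groups did not overlap, which the rule for the 10 largest decreases required of Egr1. The phosphatase gene Dusp4, which ends ERK signalling, fell from 3.28 ± 0.134 to 1.29 ± 0.257 CPM (-1.36), Phlda1 from 41.9 ± 3.47 to 19.3 ± 0.794 CPM (-1.12) and Fos by 1.09. Of the AP-1 genes, Jun fell from 117 ± 1.98 to 88.7 ± 4.19 CPM (-0.40, adjusted p = 6.45e-10), Junb by 0.51, Jund by 0.34 and Fosl1 by 0.26, while Fosb (0.033) and Fosl2 (-0.059) were not called. The ETS genes Etv5 and Etv4 fell, from 15.04 ± 0.708 to 9.78 ± 0.376 CPM (-0.62) and from 23.2 ± 0.884 to 19.2 ± 1.16 CPM (-0.27), and Etv1 (-0.20) was not called. The one member that rose was Dusp5 (0.35, adjusted p = 0.000479).

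The serum response factor motif known as the CArG box (letters CC, 6 bases that are A or T, then GG, both strands the same) is a known feature of such promoters. It was in 535 of the 32851 windows (1.63%) and in 3 of the 22 immediate early and MAP kinase genes with a window, and in 175 of the 10952 matched tested genes (1.6%). It was held by 2.02% of the 1386 genes that were higher and by 2.16% of the 1387 that were lower. The windows of Egr2 and Srf, which fell, and of Dusp5, which rose, are shown because all 3 hold a box and did not move in 1 direction; capitals mark 1 box in each.
Egr2, plus strand, chr10:67537772-67537831, box from position -72: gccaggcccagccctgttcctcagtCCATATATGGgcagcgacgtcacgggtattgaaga
Srf, minus strand, chr17:46556210-46556269, box from position -82: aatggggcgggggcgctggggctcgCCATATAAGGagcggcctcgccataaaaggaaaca
Dusp5, plus strand, chr19:53529038-53529097, box from position -82: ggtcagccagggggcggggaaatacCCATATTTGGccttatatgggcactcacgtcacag

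Inflammatory genes that passed the test were mostly lower. Of 29 cytokine, chemokine and NF-kB genes tested, 14 were lower (12.4% of all genes were), 1 higher (12.1% of all genes) and 14 not called (median -0.242), and Il6, Tnf, Cxcl2 and 4 more had too few counts. Ptgs2, the inducible cyclooxygenase, was at 35.3, 35.5 and 35.3 CPM without and 16.4, 16.6 and 18.2 CPM with Dexa, without overlap (log2 change -1.05 ± 0.063, adjusted p = 4.62e-14). Ccl2, the monocyte chemokine, was at 16.3, 14.4 and 15.6 CPM without and 8.54, 8.98 and 8.97 CPM with Dexa (log2 change -0.81 ± 0.11). Lif, an interleukin-6 family cytokine, fell from 3.82 ± 0.515 to 2.02 ± 0.197 CPM (-0.92) and Relb, an NF-kB subunit, from 20.1, 18.5 and 21.4 CPM to 12.2, 10.8 and 10.3 CPM (-0.85). Cxcl1 fell by 0.78, Cxcl12 by 0.69, Vcam1 by 0.61 and Tnfaip3 by 0.42, while the subunits Rela (-0.11) and Nfkb1 (0.051) were not called. The one that rose was Il1rl1, the interleukin-33 receptor (0.15), and no member was called higher without replicate 1 or 3 of the libraries without Dexa or without Dexa replicate 2. Among interferon-stimulated genes 2 of 29 rose, 6 fell and 21 were not called, a share near the 24.5% of all genes that were called. The median was -0.247, and it was -0.145 without the filter on low counts. Ifit3 fell from 8.77 ± 0.252 to 4.7 ± 0.379 CPM (-0.90) and Ifit3b from 1.9 ± 0.146 to 0.765 ± 0.178 CPM (-1.31), a pair of near copies whose shared reads cannot be told apart. The RNA sensor Ifih1 fell from 7.95 ± 0.711 to 5.18 ± 0.144 CPM (-0.62), and Stat2 (0.54) and Ifi35 (0.32) rose. Xaf1 was called lower (-0.70, adjusted p = 0.0382) but not in DESeq2 (0.0862), without the filter on low counts (0.0561), or without replicate 2 or 3 of the libraries without Dexa (0.104 and 0.148) or Dexa replicate 1 or 2 (0.151 and 0.0796).

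The Period and cryptochrome genes of the clock rose with Dexa, while Nr1d1 fell. Per1, a Period repressor (chromosome 11, 69095108 to 69109965), was at 34.9, 36.5 and 35.6 CPM without and 190, 190 and 199 CPM with Dexa (log2 change 2.43 ± 0.036, adjusted p = 3.46e-29). Per2 was at 6.16, 5.75 and 5.08 CPM without and 20.5, 18.2 and 21.4 CPM with Dexa (log2 change 1.82 ± 0.10, adjusted p = 1.25e-14). Cry1 was at 4.72, 4.44 and 4.56 CPM without and 8.59, 9.21 and 9.62 CPM with Dexa (log2 change 1.0 ± 0.086, adjusted p = 1.16e-10). None of these 3 genes had overlapping groups, and Cry2 rose by 0.43. Nfil3, the repressor that competes with PAR bZIP factors, rose from 36.9 ± 1.45 to 98.3 ± 0.36 CPM (1.41). Of the PAR bZIP factors themselves Hlf rose from 1.12 ± 0.194 to 3.65 ± 0.381 CPM (1.69) and Tef by 0.41, while Dbp fell by 0.20. The nuclear receptor repressor Nr1d1 (REV-ERB alpha) was at 55.96, 54.1 and 52.1 CPM without and 41.2, 42.03 and 41.8 CPM with Dexa (log2 change -0.38 ± 0.045, adjusted p = 9.31e-08), lower in all 3 Dexa libraries, and Nr1d2 fell by 0.19. The activators Arntl (0.16) and Clock (0.0020) were not called. In all, 9 of the 22 clock genes were higher (12.1% of all genes were), 4 lower (12.4% of all genes) and 9 not called. Without Dexa replicate 1, 2 were lower. The median was 0.085, and it was 0.0558 without replicate 1 and 0.127 without replicate 2 of the libraries without Dexa.

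Secreted signals of the TGF-beta, BMP and Wnt families moved in both directions. Of 35 tested, 13 rose, 16 fell and 6 were not called, where 12.1% of all genes rose and 12.4% fell. The median was -0.106, and it was -0.161 without replicate 3 of the libraries without Dexa. Ctgf, a matricellular CCN protein (chromosome 10, 24595442 to 24598683), was at 142, 134 and 143 CPM without and 901, 960.2 and 933 CPM with Dexa, without overlap (log2 change 2.74 ± 0.038, adjusted p = 7.16e-30). Its relative Cyr61 rose by 0.18, whereas Nov fell by 0.40 and Wisp1 by 0.39. Fst, the activin antagonist follistatin, rose from 12.3 ± 0.4999 to 36.3 ± 0.987 CPM (1.56), and the activin subunit Inhba fell by 0.53. Of the Id genes, known BMP targets, 4 rose, Id4 from 0.904 ± 0.213 to 2.03 ± 0.351 CPM (1.16), Id2 by 0.73, Id3 by 0.46 and Id1 by 0.38. The ligands Tgfb1, Tgfb2, Tgfb3 and Bmp4 fell, by 0.24, 0.50, 0.55 and 0.37. Tgfbr3, betaglycan, rose by 1.01 and Axin2, a feedback gene of Wnt signalling, by 0.82.

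Matrix genes were split in the same way, and the main fibrillar collagens did not pass the test. Of 45 matrix and remodelling genes 11 rose, 16 fell and 18 were not called, where 12.1% of all genes rose and 12.4% fell. The median was -0.075, and it was -0.0502 without replicate 1 of the libraries without Dexa. Adamts1, a secreted metalloprotease, was at 551, 562 and 546 CPM without and 1627, 1650 and 1683 CPM with Dexa (log2 change 1.58 ± 0.043, adjusted p = 3.03e-20). Postn, periostin, was at 302, 323 and 316 CPM without and 853, 877 and 889 CPM with Dexa (log2 change 1.48 ± 0.047). Thbs1, thrombospondin-1, was at 2865, 2883 and 2778 CPM without and 1423, 1363 and 1436 CPM with Dexa (log2 change -1.01 ± 0.071). Each of the 3 had groups well apart. Timp3, a protease inhibitor, fell from 458 ± 15.7 to 266 ± 5.82 CPM (-0.79). The cross-linking enzyme Lox rose (0.66). The plasminogen activators Plat and Plau and the receptor of Plau, Plaur, fell by 0.74, 0.24 and 0.53. Col1a1 (-0.034), Col1a2 (-0.0094) and Fn1 (-0.044) were not called. Among 20 contractile genes 5 rose, 4 fell and 11 were not called (median 0.054), where 24.5% of all genes were called. Lmod1 rose from 32.9 ± 2.01 to 54.5 ± 3.16 CPM (0.73), Mylk from 14.9 ± 1.11 to 19.3 ± 1.09 CPM (0.37) and Smtn from 125 ± 4.25 to 162 ± 1.48 CPM (0.37). Tpm1, a tropomyosin, fell from 1384 ± 19.7 to 1130 ± 18.2 CPM (-0.29). The platelet-derived growth factor receptors moved apart, Pdgfra from 77.4, 80.9 and 75.5 CPM to 159, 146 and 153 (0.97, adjusted p = 6.2e-13) and Pdgfrb from 441, 455 and 432 CPM to 273, 258 and 273 (-0.72, adjusted p = 6.39e-15).

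Insulin and IGF pathway genes moved in both directions. Sesn1, a sestrin that inhibits mTORC1, was at 54.4, 58.2 and 56.8 CPM without and 249, 259 and 249 CPM with Dexa (log2 change 2.16 ± 0.040, adjusted p = 1.05e-26). Igfbp2, an IGF-binding protein, rose by 2.35. Foxo3, a transcription factor that insulin keeps out of the nucleus, rose from 59.9 ± 3.29 to 129 ± 4.6 CPM (1.10) and Pik3r1, the regulatory subunit of PI3 kinase, from 88.5 ± 4.94 to 162 ± 5.31 CPM (0.88). Igf1 fell from 15.2 ± 0.651 to 9.3 ± 0.103 CPM (-0.70), and the adaptor Irs1 fell by 0.65 while Irs2 rose by 0.45. Over 25 insulin and IGF genes 7 rose, 8 fell and 10 were not called (median 0.035), where 24.5% of all genes were called. Among 23 adipogenic and lipid genes 9 rose, 3 fell and 11 were not called, where 12.1% of all genes rose and 12.4% fell. The median was 0.110, and it was 0.0558 without Dexa replicate 1 and 0.0656 without the filter on low counts. Klf15 was at 1.56, 1.7 and 1.68 CPM without and 9.28, 9.91 and 9.72 CPM with Dexa (log2 change 2.55 ± 0.12), and Cebpd, an early adipogenic factor, was at 8.89, 4.98 and 7.06 CPM without and 38.6, 39.3 and 33.8 CPM with Dexa (2.42 ± 0.11). Both genes were higher in every Dexa library. Fabp4, a fatty acid carrier, rose from 23.95 ± 0.535 to 79.6 ± 1.27 CPM (1.73), and Lpl, lipoprotein lipase, fell from 14.01 ± 0.559 to 7.75 ± 0.33 CPM (-0.86). The master regulators Pparg (-0.076) and Cebpa (-0.21) were not called. Of the 21 sterol synthesis genes 11 rose (12.1% of all genes did), none fell and 10 were not called, with small changes of at most 0.32 (Lss, lanosterol synthase, from 145 ± 5.24 to 181 ± 4.29 CPM) and a median of 0.133. Mvd (0.25), Mvk (0.24) and Pmvk (0.22), enzymes of the mevalonate pathway, also rose.

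Cell cycle genes were called about as often as all genes. Of 33 tested, 4 rose, 3 fell and 26 were not called (median -0.033), where 24.5% of all genes were called. Among those not called were Mki67 (-0.037), Ccnb1 (0.058) and Mcm2 (0.0037). The inhibitor gene Cdkn1a (p21) was at 47.6, 48.04 and 52.5 CPM without and 104, 109.5 and 109.6 CPM with Dexa (log2 change 1.13 ± 0.041, adjusted p = 2.79e-19), while Cdkn2b (p15) fell from 152 ± 2.44 to 105 ± 2.85 CPM (-0.54). The cyclin Ccnd2 fell from 751 ± 39.4 to 560.4 ± 27.2 CPM (-0.42) and Ccne2 rose from 15.5 ± 1.33 to 19.6 ± 1.49 CPM (0.34). Of 10 genes of the Cop1 ligase and its Tribbles adaptors, the 3 adaptors fell, 1 subunit rose and 6 were not called (median -0.026), where 24.5% of all genes were called. Trib3 was at 129, 122 and 129 CPM without and 95.6, 102 and 104 CPM with Dexa (-0.33, adjusted p = 2.78e-08), Trib1 went from 24.7 ± 2.07 to 19.7 ± 1.39 CPM (-0.32) and Trib2 from 53.9 ± 0.89 to 47.3 ± 1.51 CPM (-0.19). The linker Ddb1 rose by 0.081 (adjusted p = 0.0237), a call that was lost without replicate 3 of the libraries without Dexa (adjusted p 0.114), without Dexa replicate 1 or 3 (0.0765 and 0.0857) and without the filter on low counts (0.166). Det1 (-0.054) and Cul4a (0.033) were not called.

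**Figure D3:**
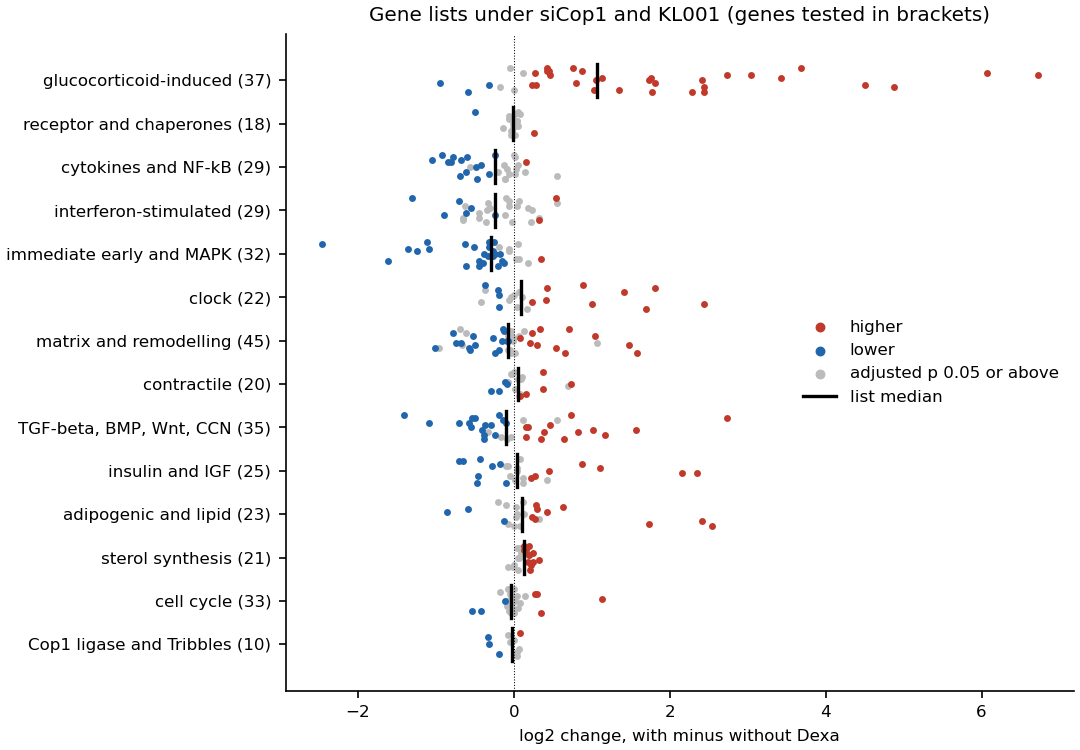
Log2 change with Dexa (horizontal axis) of every tested member of 14 gene lists (rows, number tested in brackets) in siCop1 KL001 libraries; red members were higher, blue lower and grey not called at an adjusted p below 0.05, and black bars are list medians. The glucocorticoid-induced list has its median at 1.06, the immediate early and MAPK list at -0.294, and the receptor and chaperone list at -0.014.

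The same Dexa comparison in the 3 other backgrounds shared no library with this one, so the difference between responses was tested directly. Dexa changed 3496 genes in siCop1 DMSO (23.7% of the 14772), 3952 in siCTRL KL001 (26.8%) and 3957 in siCTRL DMSO (26.8%). Of the 3620 genes called here, 2705 were called in the same direction in siCop1 DMSO (74.7% of those here, 77.4% of those there), 2758 in siCTRL KL001 (76.2% and 69.8%) and 2798 in siCTRL DMSO (77.3% and 70.7%). In all 4 backgrounds 2240 genes were called in 1 direction. A further 374 were called here and in none of the other 3, but for only 4 of them did any test of the difference pass, which are named here because they are few. They were Fhl2 (0.17), Sla2 (1.52, at 0.516 CPM or less), Slc1a4 (0.12) and the iron exporter Slc40a1 (-0.27). Conversely, 162 genes were called in 1 direction in all 3 other backgrounds and not here, and for 7 of them, Gas1 among them, a test of the difference passed. A further 9, Dkk2 among them, were called here and in the opposite direction in at least 1 other background.

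With Cop1 knocked down, the Dexa response differed between KL001 and DMSO in few genes. Against siCop1 DMSO, 10 genes differed (0.0677% of those tested), 7 with a more positive and 3 with a more negative log2 change under KL001. An unadjusted p below 0.05 was found for 670 of the 14772 genes, a share below 0.05. Genes without a difference reach such a p at a rate of 0.05, so the 670 are not a count of differing genes. None of the 10 differed by 2-fold or more. Without the filter on low counts 43 differed, 18 more positive and 25 more negative, and 13 of them by at least 2-fold. Ctgf rose further under KL001, from 139.5 ± 4.8 to 931 ± 29.5 CPM against 186 ± 5.31 to 927 ± 15.4 in siCop1 DMSO, a difference in log2 change of 0.42 ± 0.050 (adjusted p = 5.22e-05). The mean levels with Dexa were within 1 SD of each other, and the level without Dexa was lower under KL001. Cdo1, cysteine dioxygenase, also rose further, with 11.9 and 75.1 CPM here and 14 and 66.8 CPM in DMSO (difference 0.41, adjusted p = 0.0134). The log2 changes of Adamts1, Postn and Nfil3 were also larger here (differences 0.31, 0.34 and 0.28). Postn went from 314 ± 10.4 to 873 ± 18.7 CPM here and from 548.5 ± 22.7 to 1208 ± 41.7 in DMSO, so its levels were lower here on both sides. Adamts1 went from 553 to 1653 CPM here and from 650 to 1569 in DMSO. Nfil3 went from 36.9 to 98.3 CPM here and from 41.7 to 91.4 in DMSO. The Wnt receptor Fzd4 fell in DMSO (-0.39) and was not called under KL001 (0.068), a difference of 0.45. Gas1, a growth arrest gene of the membrane, rose in DMSO (0.42) and was not called under KL001 (0.065; difference -0.35, adjusted p = 0.0157). Tmem158 rose in DMSO (0.44) and was not called here (-0.21; difference -0.65), and Sned1 fell here (-0.21) and was not called in DMSO (0.11; difference -0.32).

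The count of 10 fell whichever of the 12 libraries was left out. With all libraries, the adjusted p of Adamts1, Fzd4, Postn, Sned1 and Tmem158 was 0.0446, near the threshold. With 1 library left out, the difference stayed at 0.408 to 0.480 for Fzd4, 0.294 to 0.328 for Adamts1 and -0.340 to -0.291 for Sned1. In the following, a library named without the word Dexa is one without the hormone. Leaving out single libraries left 1 gene (without siCop1 DMSO replicate 1 or 2, or its Dexa replicate 3, or siCop1 KL001 Dexa replicate 3), 2 (without siCop1 DMSO Dexa replicate 1, siCop1 KL001 replicate 1 or 2, or its Dexa replicate 2), 3 (without siCop1 KL001 replicate 3), 4 (without siCop1 DMSO replicate 3 or siCop1 KL001 Dexa replicate 1) or 7 (without siCop1 DMSO Dexa replicate 2). Of the 9 of the 10 genes that were followed through these refits, Ctgf kept its call in each. Cdo1 lost it when any 1 of siCop1 DMSO replicates 1 and 2, siCop1 DMSO Dexa replicate 3, siCop1 KL001 replicates 1 and 2 and siCop1 KL001 Dexa replicate 3 was left out (adjusted p 0.0566 to 0.0674). Gas1 kept it only when the library left out was 1 of siCop1 DMSO replicate 3, siCop1 DMSO Dexa replicate 2, siCop1 KL001 replicate 2 and siCop1 KL001 Dexa replicate 1 (otherwise 0.0548 to 0.0945). Nfil3 kept it only without siCop1 DMSO Dexa replicate 2 or siCop1 KL001 replicate 3 (otherwise 0.0546 to 0.126). Postn (0.0614 to 0.198) and Tmem158 (0.0669 to 0.22) kept it only without siCop1 DMSO Dexa replicate 2. Adamts1 (0.0692 to 0.188), Fzd4 (0.0614 to 0.188) and Sned1 (0.0706 to 0.197) lost it without any of the 12. With RLE scaling these 3, Postn and Tmem158 were not called either (0.0529 to 0.0607).

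**Figure D4:**
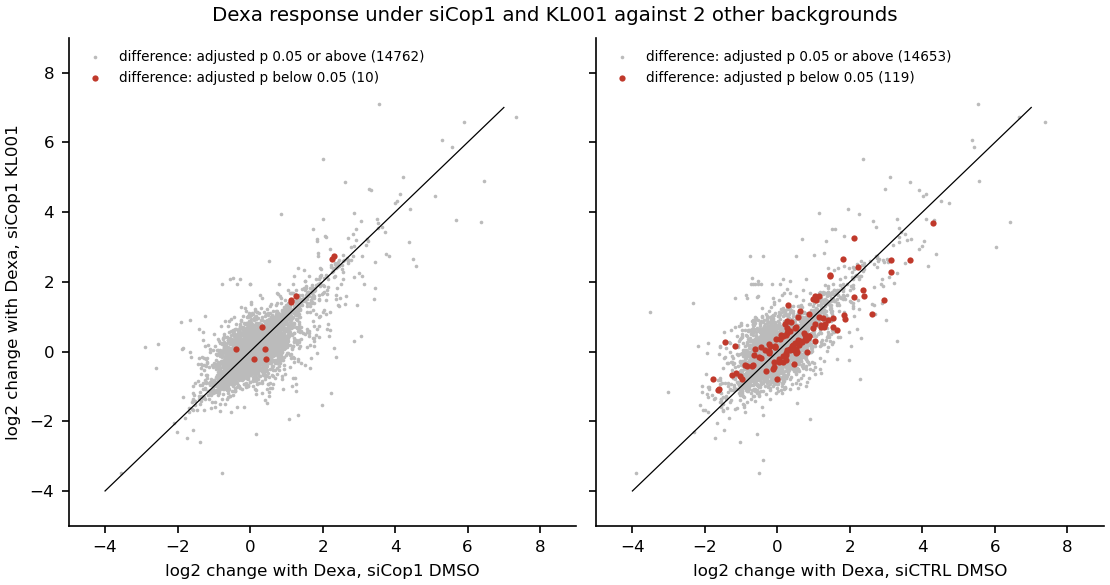
Log2 change with Dexa in siCop1 KL001 (vertical axes) against the log2 change in siCop1 DMSO (left) and in siCTRL DMSO (right), 1 point per gene tested, with the line of equal change. Red points are genes whose responses differed at an adjusted p below 0.05, 10 on the left and 119 on the right.

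Against the siCTRL backgrounds more genes differed. There were 83 against siCTRL KL001 (0.562%, 39 more positive and 44 more negative here). Against siCTRL DMSO there were 119 (0.806%, 55 and 64), and 58 genes were in both sets. An unadjusted p below 0.05 was found for 1133 and 1033 genes. Those counts also hold genes without a difference, which reach such a p at a rate of 0.05. Of the 83, 60 were called in the same direction on both sides, 45 with a smaller and 15 with a larger change here. Of the 119, the same held for 77, 52 smaller and 25 larger. The count of 83 fell to 43 without siCop1 KL001 Dexa replicate 2 and to 54 without siCop1 KL001 replicate 3, and the count of 119 to 79 without siCop1 KL001 Dexa replicate 3. The balance of signs also moved when single libraries were left out. The 39 and 44 became 29 and 60 without siCTRL KL001 replicate 1 and 52 and 42 without its replicate 2. The 39 fell to between 15 and 23 without siCTRL KL001 Dexa replicate 2 or 3, siCop1 KL001 replicate 2 or 3, or its Dexa replicate 1 or 2. The 44 fell to 29 without siCTRL KL001 Dexa replicate 1 and to 28 without siCop1 KL001 Dexa replicate 2. The 55 fell to between 28 and 36 without siCTRL DMSO replicate 2 or 3, its Dexa replicate 1 or 2, siCop1 KL001 replicate 3 or its Dexa replicate 3.

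Among these, several induced genes had a smaller log2 change here than with siCTRL. Errfi1, a feedback inhibitor of the EGF receptor (chromosome 4, 150853796 to 150868889), was at 51.1, 49.7 and 50.4 CPM without and 248, 245 and 242 CPM with Dexa. In siCTRL DMSO it went from 28.2 ± 0.72 to 247 ± 4.92 CPM and in siCTRL KL001 from 28.3 ± 2.5 to 238 ± 5.72, so that the levels with Dexa were close and the levels without were lower than here. The log2 change of 2.28 was smaller, with a difference of -0.85 ± 0.057 against siCTRL DMSO (adjusted p = 6.5e-11) and of -0.79 against siCTRL KL001 (adjusted p = 7.53e-10). Fkbp5 reached 598 ± 4.97 CPM here from 46.5 ± 1.9, against 719 ± 7.13 from 36.4 ± 0.969 in siCTRL DMSO (difference -0.62 ± 0.048, adjusted p = 1.2e-09). Fst rose by 1.56 here and by 2.11 in siCTRL DMSO (difference -0.55, adjusted p = 0.000189). Angptl7, a secreted angiopoietin-like protein, rose by 2.64 here and 3.66 in siCTRL DMSO (difference -1.02, adjusted p = 1.57e-05), from 28.97 to 180.3 CPM here and from 5.56 to 70.0 there. Against siCTRL KL001 the difference was -1.0 for Ccbe1, a factor of lymphatic growth (adjusted p = 0.00173). It went from 4.42 ± 0.359 to 13.4 ± 1.18 CPM here and from 2.10 ± 0.241 to 12.8 ± 0.188 there, so that its levels with Dexa were close. In siCop1 DMSO the log2 changes were 2.25 for Errfi1, 3.54 for Fkbp5, 1.33 for Fst, 2.71 for Angptl7 and 1.76 for Ccbe1, and none of these differed from the response here by the test.

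Klf5, a Krüppel-like factor, had a small log2 change here. It went from 6.79, 6.26 and 5.12 to 6.99, 8.05 and 7.21 CPM here (0.30, adjusted p = 0.0329). In siCTRL KL001 it rose by 1.08, from 3.63 ± 0.267 to 7.66 ± 0.307 CPM (difference -0.78 ± 0.15, adjusted p = 0.0086). The level with Dexa was thus close to that here, and the level without was lower in siCTRL KL001. In siCop1 DMSO it rose by 0.31, a difference of -0.013 ± 0.15 that did not pass the test. Its increase here was itself not called by DESeq2 (0.0832), without the filter on low counts (0.0582), without replicate 3 of the libraries without Dexa (0.248) or without Dexa replicate 2 or 3 (0.186 and 0.0515). The low-level genes Adra2a, an adrenergic receptor, and Slc39a8, a zinc transporter, rose by 1.09 and 1.49 here and by 2.60 and 2.93 in siCTRL DMSO (differences -1.51 and -1.44, adjusted p = 0.0309 and 0.0227). Slc39a8 went from 1.06 to 2.98 CPM here and from 0.433 to 3.32 in siCTRL DMSO. Adra2a went from 0.499 to 1.07 CPM here and from 0.836 to 5.10 there. In siCop1 DMSO Adra2a and Slc39a8 rose by 1.83 and 1.69, and neither difference passed the test. The Adra2a difference held without siCTRL DMSO Dexa replicate 3, siCop1 KL001 replicate 2 or its Dexa replicate 3 and was lost without any other of the 12 libraries (adjusted p 0.0509 to 0.214). The Slc39a8 difference was lost without replicate 1 or 2 of siCTRL DMSO, or replicate 2 or 3 of siCop1 KL001 with or without Dexa (adjusted p 0.0526 to 0.0999).

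For other genes the log2 change was more positive here than with siCTRL. Dkk2, a secreted Wnt antagonist (chromosome 3, 132085266 to 132180304), was at 70.4, 68.9 and 70.3 CPM without and 85.3, 76.3 and 72.8 CPM with Dexa (0.16, adjusted p = 0.0207). It fell from 51.6 ± 1.79 to 23.1 ± 0.585 CPM in siCTRL DMSO (-1.16) and from 29.5 ± 2.85 to 15.3 ± 0.882 CPM in siCTRL KL001 (-0.94). The differences were 1.32 ± 0.080 (adjusted p = 9.31e-12) and 1.11 ± 0.087 (adjusted p = 1.93e-09), and in siCop1 DMSO the change of 0.041 was not called. The small increase here was lost without replicate 2 of the libraries without Dexa (adjusted p 0.0687) or Dexa replicate 1 (0.245). Ace rose from 3.48 ± 0.308 to 33.2 ± 0.284 CPM here and from 14.1 ± 1.2 to 61.5 ± 2.9 CPM in siCTRL DMSO, so its larger log2 change (difference 1.13 ± 0.11, adjusted p = 1.16e-07) went with lower levels on both sides. Tll1, a tolloid-like metalloprotease, rose by 1.34 here and 0.29 in siCTRL DMSO (difference 1.06, adjusted p = 2.1e-07). Nptx1, a neuronal pentraxin, fell by 0.80 here and by 1.6 in siCTRL KL001 (difference 0.79, adjusted p = 0.00161). Grem1 fell by 1.09 here and by 1.62 in siCTRL DMSO (difference 0.53, adjusted p = 6.01e-06). It went from 229 ± 2.87 to 108 ± 2.43 CPM here and from 178 ± 3.17 to 58.0 ± 3.15 there. For Nptx1 and Grem1 the smaller log2 falls thus went with higher levels here on both sides. In siCop1 DMSO the log2 changes were 2.70 for Ace, 1.01 for Tll1, -0.52 for Nptx1 and -1.26 for Grem1, and none of these differed from the response here by the test.

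**Figure D5:**
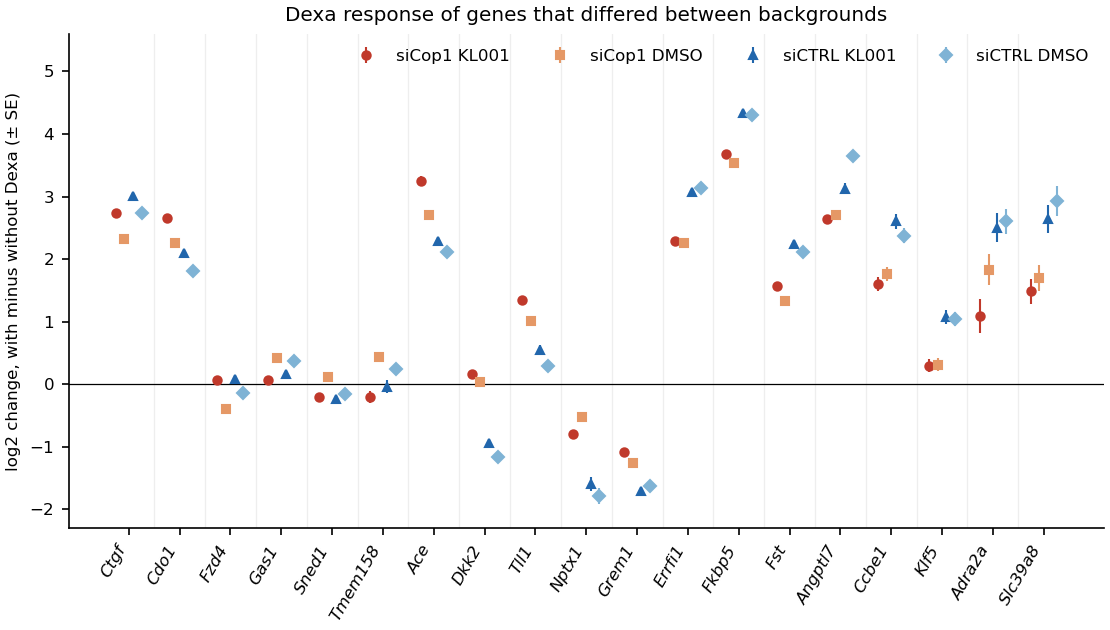
Log2 change with Dexa (vertical axis, ± SE) in the 4 backgrounds for 19 genes whose response in siCop1 KL001 differed from at least 1 other background; red circles are siCop1 KL001 and orange squares siCop1 DMSO, dark triangles siCTRL KL001 and light diamonds siCTRL DMSO. For Dkk2, Errfi1, Fkbp5, Fst and Klf5 the siCop1 points lie beside each other and apart from the siCTRL points.

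The members whose response differed are given by list, beside the share of all genes that differed: 0.0677% from siCop1 DMSO, 0.562% from siCTRL KL001 and 0.806% from siCTRL DMSO. In that order, 1, 5 and 4 of the 35 TGF-beta, BMP, Wnt and CCN genes differed, among them Ctgf, Fst, Grem1 and Dkk2, and 3, 1 and 2 of the 45 matrix genes, among them Adamts1 and Postn. Of the 37 glucocorticoid-induced genes tested, none differed from siCop1 DMSO and 4 differed from each siCTRL background. Their median log2 changes were 0.971 in siCop1 DMSO, 1.14 in siCTRL KL001 and 1.24 in siCTRL DMSO, beside 1.06 here. With 1 library left out, the median here lay between 0.970 (without siCop1 KL001 replicate 2) and 1.09 (without its replicate 1). The immediate early and MAPK list had medians of -0.288, -0.285 and -0.272 in the same order and -0.294 here, with 0, 3 and 2 genes differing. Its median here was -0.259 without Dexa replicate 3 and -0.310 without Dexa replicate 1, a range that holds the medians of the other 3 backgrounds. The cytokine and NF-kB list had medians of -0.399, -0.429 and -0.365 beside -0.242 here, with 0, 2 and 0 genes differing. Of the 22 clock genes, 1 differed from siCop1 DMSO, none from siCTRL KL001 and 5 from siCTRL DMSO. Cry1, Per1 and Nr1d1 were among the 5, with Cry1 at 4.57 ± 0.14 to 9.14 ± 0.523 CPM here and 22.8 ± 0.154 to 33.6 ± 0.799 in siCTRL DMSO (difference 0.44, adjusted p = 0.0309). Its level was low in both KL001 backgrounds, with siCTRL KL001 at 5.81 ± 0.666 to 10.1 ± 0.15 CPM, and high in both DMSO backgrounds, with siCop1 DMSO at 21.2 ± 1.62 to 31.5 ± 0.976 CPM. The Cry1 difference was lost without any of the 12 libraries except siCTRL DMSO Dexa replicate 3 and siCop1 KL001 Dexa replicate 1 (adjusted p 0.0559 to 0.123), and also in DESeq2 (0.0677) and without the filter on low counts (0.0541). Per1 rose by 2.43 here and by 2.22 in siCTRL DMSO (difference 0.21, adjusted p = 0.0309), a call lost without 8 of the 12 (0.0561 to 0.155), all but siCTRL DMSO replicate 1, siCop1 KL001 replicate 2 and its Dexa replicates 1 and 2. It was also lost without the filter (0.189) and with only the groups compared (0.0601). The log2 fall of Nr1d1 was smaller here (difference 0.30, adjusted p = 0.025). Its levels went from 54.1 ± 1.96 to 41.6 ± 0.445 CPM here and from 33.1 ± 1.74 to 20.7 ± 0.573 in siCTRL DMSO. That call was lost without 7 of the 12 (0.0509 to 0.145), all but siCTRL DMSO replicates 1 and 3, its Dexa replicate 2, siCop1 KL001 replicate 1 and its Dexa replicate 1.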

How the data were processed

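RNA was measured by stranded, single-read mRNA sequencing in 24 libraries, per the labels' protocols. The authors deposited raw read counts per gene, and per the submitters' processing notes used bcl2fastq 1.8.4, STAR 2.4.5a, featureCounts from Subread 1.4.6-p3, Picard 1.126 and DESeq2, with build GRCm38 (mm10). The counting's strand setting and its handling of reads shared between copies were not given in the sources used here. A deposited table of normalized values was not used.

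The counts were fitted with edgeR 4.0.16 (limma 3.58.1, R 4.3.3): TMM scaling, filterByExpr, 1 mean for each of 8 groups over all 24 libraries, and the robust quasi-likelihood test, with Benjamini-Hochberg adjustment over 14772 genes and a threshold of 0.05. CPM are TMM-scaled. Differences between Dexa responses were contrasts of the same fit. The script was tested on simulated data. Totals were 21409988 to 27875023 counts per library, which limits genes with few counts, and counts of replicates within the 2 groups differed by more than sampling noise.

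The genes named by rule were up to 10 higher and 10 lower with the largest change, an adjusted p below 0.05, at least 5 CPM and groups that did not overlap; up to 3 of each sign per difference with at least 1 CPM; up to 4 called members per list; and 15 set by name. Members and lists were chosen with earlier results of these data known. The alternatives tried were DESeq2 1.42.0, scaling by RLE, leaving out the low-count filter, fitting only the groups compared, a replicate block, and leaving out each library in turn. A few genes that were measured are not reported here.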

Additional observations from a re-analysis of the deposited data

Results flagged for a closer look

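Each gene chosen by the naming rule whose Dexa response in siCop1 KL001 differed from the response in another background, by the contrast of the 2 responses in edgeR's quasi-likelihood test with an adjusted p below 0.05, is listed with that difference in log2 change.

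Against siCop1 DMSO, the log2 response here was more positive for Fzd4 (0.45), Ctgf (0.42), Cdo1 (0.41), Postn (0.34), Adamts1 (0.31) and Nfil3 (0.28). Against siCop1 DMSO, the log2 response here was more negative for Tmem158 (-0.65), Gas1 (-0.35) and Sned1 (-0.32). The libraries whose removal ended these calls are given with the comparison above.

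Against siCTRL KL001, the log2 response here was more positive for Dkk2 (1.11), Ace (0.96), Nptx1 (0.79), Tll1 (0.79), Grem1 (0.62) and Cdo1 (0.56). The same held for Evi2a (0.49) and Etv5 (0.44). Against siCTRL KL001, the log2 response here was more negative for Ccbe1 (-1.0), Errfi1 (-0.79), Klf5 (-0.78), Fst (-0.67), Fkbp5 (-0.64) and Egr1 (-0.32). The same held for Ctgf (-0.26). A library named without the word Dexa is one without the hormone. The Egr1 call was lost without any 1 of the 12 libraries other than siCTRL KL001 replicate 1, siCTRL KL001 Dexa replicate 2 and siCop1 KL001 replicate 2 (adjusted p 0.051 to 0.134). The Etv5 call was lost when any 1 of these was left out: siCTRL KL001 Dexa replicate 2 and siCop1 KL001 Dexa replicate 1 (adjusted p 0.0552 to 0.0688). The Evi2a call was lost when any 1 of these was left out: siCTRL KL001 Dexa replicate 1 and siCop1 KL001 Dexa replicate 2 (adjusted p 0.0614 to 0.11). The Ctgf call was lost with only the groups compared in the fit (adjusted p 0.0539).

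Against siCTRL DMSO, the log2 response here was more positive for Dkk2 (1.32), Ace (1.13), Tll1 (1.06), Nptx1 (0.98), Cdo1 (0.85) and Grem1 (0.53). The same held for Etv5 (0.52), Evi2a (0.52), Cry1 (0.44), Adamts1 (0.43), Postn (0.41) and Nr1d1 (0.30). It held too for Trib2 (0.26) and Per1 (0.21). Against siCTRL DMSO, the log2 response here was more negative for Adra2a (-1.51), Slc39a8 (-1.44), Angptl7 (-1.02), Errfi1 (-0.85), Ccbe1 (-0.77) and Klf5 (-0.75). The same held for Fkbp5 (-0.62), Fst (-0.55) and Gas1 (-0.30). The Ccbe1 call was lost when any 1 of these was left out: siCTRL DMSO replicates 1 and 2, siCTRL DMSO Dexa replicate 2, siCop1 KL001 replicates 2 and 3 and siCop1 KL001 Dexa replicate 1 (adjusted p 0.0509 to 0.0769). The Evi2a call was lost without siCTRL DMSO Dexa replicate 3 (adjusted p 0.0697). The Trib2 call was lost without any 1 of the 12 libraries other than siCTRL DMSO replicate 1, siCTRL DMSO Dexa replicate 2, siCop1 KL001 replicate 1 and siCop1 KL001 Dexa replicate 2 (adjusted p 0.0564 to 0.179), and without the filter on low counts (0.0521) or with only the groups compared (0.0885). The Gas1 call was lost with only the groups compared in the fit (adjusted p 0.0601). Those for Adra2a, Slc39a8, Cry1, Per1 and Nr1d1 stand with the comparison above.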

How the results depend on the processing

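The Dexa response in siCop1 KL001 held between 3242 (DESeq2) and 3885 genes (only the groups compared) under the settings that kept every library, and between 3051 and 3202 with 1 library left out. Of the 88 named genes that changed, 83 kept direction and call under all 11 alternatives. Many of the 88 were named for a large called change, so this share does not describe all genes called. Of the 47 differences followed, 26 kept direction and call under the 5 other settings and each of 12 left-out libraries. The exceptions among the changes were Ddb1, Dkk2, Hspa8, Klf5 and Xaf1.

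The counts of differing genes moved further. Against siCop1 DMSO the 10 genes became 5 with RLE scaling, 43 without the filter on low counts, 24 with only the groups compared and 1 to 7 with 1 library left out. DESeq2 gave 14. Against siCTRL KL001 the 83 became 156 without the filter, 52 with only the groups compared and 43 to 94 with 1 library left out. Against siCTRL DMSO the 119 became 185 without the filter and 79 to 114 with 1 library left out. DESeq2 gave 91 and 125. The cause was not tested. None of these named genes or followed differences changed direction.

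Samples with the same replicate number did not deviate together (correlations of -0.17, -0.0523 and 0.0162), so the numbers were not taken as a pairing. With the replicate block, 3561 genes changed, and 5, 75 and 108 differed from siCop1 DMSO, siCTRL KL001 and siCTRL DMSO. Against siCop1 DMSO the block ended the calls of Adamts1, Fzd4, Postn, Sned1 and Tmem158 (adjusted p 0.0636 to 0.0979), and against siCTRL KL001 that of Egr1 (0.0545).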
